A study of Homo sapiens with 27 samples.

Results

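The nuclear-encoded subunits of the respiratory chain were followed across 27 libraries of teloHAEC, a line of human aortic endothelial cells immortalised with telomerase. Members were the rows of the count matrix whose symbols start with NDUFA, NDUFB, NDUFC, NDUFS, NDUFV, UQCR, COX4 to COX8, ATP5F, ATP5M or ATP5P, or are SDHA to SDHD and their relatives, without pseudogenes and NDUFAF genes. The rule took 88 of 14008 rows. Of these, 81 encode subunits and are described here: 37 of complex I, 4 of complex II, 9 of complex III, 13 of complex IV with NDUFA4 counted there, and 18 of complex V. The other 7 are 4 assembly factors of complex II (the SDHAF genes) and 3 antisense or divergent transcripts (NDUFA6-DT, NDUFB2-AS1 and NDUFV2-AS1), which are not counted below. The tissue-restricted or inducible paralogues COX4I2, COX6A2, COX6B2, COX7B2, COX8C and NDUFA4L2 were not among the rows used here.

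All 6 groups were the same cell line electroporated with Cas9 ribonucleoprotein, at 150000 cells per replicate, and RNA was taken on day 2. Set B held 4 libraries of an enhancer deletion at LDAH (in the labels C2orf43), made with guides on both sides of the candidate enhancer, 4 libraries given a guide against HPRT, and 7 given a non-targeting guide as the negative control. Set A held 4 libraries of an enhancer deletion at SMAD3, 4 HPRT-targeted libraries and 4 negative control libraries. The titles name a series, A or B, for the control libraries alone, so the set given to each deletion does not come from its title. The labels mention no clonal selection. They also leave unsaid whether replicates are separate cultures, so a p-value here measures spread that may be technical. Library numbers in the labels run from 50 to 54 for the LDAH deletion and 55 to 67 for the set B controls, and from 10 to 13 for the SMAD3 deletion and 26 to 33 for the set A controls. Their meaning is not stated, and anything that goes with them cannot be told apart from deletion.

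Complexes I to IV pass electrons from NADH and succinate to oxygen and, except for complex II, pump protons across the inner mitochondrial membrane; complex V, the ATP synthase, lets them back through a rotor to make ATP. Most subunits are encoded in the nucleus and imported, and a core of hydrophobic subunits of complexes I, III, IV and V is encoded by mitochondrial DNA. Cultured endothelial cells are known to draw much of their ATP from glycolysis, and their mitochondria are often described as signalling and biosynthetic organelles. Transcription of many nuclear subunit genes is known to depend on NRF1, on ETS factors such as GABPA, and on YY1.

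Promoters of 3 members that recur in the results below are shown because each holds an exact match to the core of the NRF1 motif. Each is a stretch of 60 bases upstream of the start that RefSeq gives, on GRCh38.p14, plus strand, 5′ to 3′, with bases that match GCGCATGCG on either strand in capitals. SDHD is at chr11:112086743-112086802, NDUFS7 at chr19:1383813-1383872 and NDUFS6 at chr5:1801341-1801400.
SDHD: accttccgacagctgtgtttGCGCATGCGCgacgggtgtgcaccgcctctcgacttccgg
NDUFS7: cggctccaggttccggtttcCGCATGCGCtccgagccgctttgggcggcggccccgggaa
NDUFS6: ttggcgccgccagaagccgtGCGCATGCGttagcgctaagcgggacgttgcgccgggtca
In SDHD the matches on the 2 strands overlap. Promoters spanning 250 bases before to 50 after the start were matched for 65 of the 81 members. GCGCATGCG occurred on either strand in 10 of 65 (15.4%), against 3.77% of 10628 promoters of genes in the matrix. AAGATGGCG, the YY1 letters, occurred in 8 (12.3%) against 4.06%, and CCGGAAGTG, the ETS letters, in 4 (6.15%) against 5.12%. A match is a run of letters, and no binding was measured here. The 3 genes shown did not move alike, as the values below give.

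The endothelial label was checked against marker genes. All 10 endothelial markers were among the rows, at a summed 0.0926% to 0.200% of counts per library, and the markers of other cell types were few: 1 of 6 for smooth muscle at no more than 0.00465%, 1 of 5 for fibroblasts at no more than 0.000262%, 2 of 6 for blood at no more than 0.0018%, and 0 of 5 for epithelium. Total counts per library ran from about 3430480 to 7752410. Levels are CPM, counts scaled to library size, here with the trimmed mean of M-values (TMM). The limit set by 3 counts of the total was 0.387 to 0.875 CPM, and it covers counting error only. Because the assay counts 1 tag near the 3′ end of each transcript, levels are not divided by length.

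The targeted genes were checked next. SMAD3 stood at 106, 110.1, 104 and 74.97 CPM in SMAD3 deletion and 133, 143, 121 and 140.1 CPM in negative control libraries of set A, without overlap (log2 fold change -0.44 ± 0.14, edgeR adjusted p = 0.702). LDAH stood at 10.6, 8.48, 6.61 and 2.67 CPM in LDAH deletion and 7.70 to 18.0 CPM in negative control libraries of set B, with overlap (-0.76 ± 0.40, edgeR adjusted p = 1.00). HPRT1 overlapped between HPRT-targeted and negative control libraries in both sets (-0.28 ± 0.19), and a cut in a gene need not lower its tag count.

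The 81 genes together took 1.24% to 2.19% of the counts of a library. UQCRB, a small subunit of complex III near its ubiquinone site, had the highest mean over all libraries at 824 CPM, followed by ATP5F1E (the epsilon subunit of the ATP synthase stalk) at 812 CPM and ATP5MC3 (one of 3 genes for the c subunit of the rotor ring) at 715 CPM. The median member stood at 169 CPM, and 78 of 81 reached 10 CPM. The 3 below it were COX7A1, the muscle and heart form of its subunit, at 1.30 CPM, and the retrogene copies UQCRHL at 3.11 CPM and ATP5MGL at 4.34 CPM. Reads of UQCRHL and UQCRH, and of ATP5MGL and ATP5MG, come from near-identical sequences, so how they were divided is uncertain. The 4 genes of complex II, the succinate dehydrogenase that also serves the citric acid cycle, were all among the modest ones. Over the 6 groups, the mean of SDHA, the flavoprotein, ran from 73.5 to 106 CPM and that of SDHB, the iron-sulphur protein, from 38.5 to 70.1 CPM. The membrane anchors differed, SDHC lying between 91.4 and 188 CPM and SDHD between 12 and 29.8 CPM.

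In the core of complex I, group means of NDUFV1, which binds NADH, ran from 57.4 to 80.8 CPM, and those of NDUFS1, the largest subunit, from 52.6 to 83.4 CPM. NDUFAB1, the acyl carrier protein of mitochondria that is also a subunit, had group means of 201 to 241.3 CPM. In complex III, UQCRC1 of the core ran from 74.4 to 88.8 CPM, the Rieske iron-sulphur protein UQCRFS1 from 124 to 181 CPM, and UQCRQ from 351 to 447 CPM. In complex IV, COX4I1, the ubiquitous form of subunit 4, ran from 414 to 642 CPM. NDUFA4, once assigned to complex I, ran from 253 to 483 CPM. COX5A had group means of 217 to 319 CPM and COX5B of 203 to 237 CPM. For COX6A1 they were 194 to 284 CPM, for COX7A2 218 to 294 CPM, for COX7C 309 to 444 CPM and for COX8A 289.6 to 366 CPM. COX7A2L, which takes part in supercomplexes, ran from 76.8 to 131 CPM. In complex V, the catalytic ATP5F1B ran from 475 to 602 CPM and its partner ATP5F1A from 250.1 to 341 CPM. The c-subunit genes ATP5MC1 and ATP5MC2 ran from 227 to 321 and from 385 to 545 CPM, and ATP5PO of the peripheral stalk from 206 to 303 CPM. Group means of ATP5F1E ran from 733 to 958 CPM and those of ATP5MC3 from 511 to 1069 CPM. Of the 81 genes, 50 had their highest group mean in HPRT-targeted cells of set A and 19 in those of set B. The share of all genes is not given here, so this does not set members apart from genes at large. Group means also take in the libraries described next, which were spread unequally over the groups.

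In 7 libraries, expression across all genes stood apart from the rest of their set, and subunit levels moved with this. They were, in set B, LDAH deletion replicate 4, HPRT-targeted replicates 2 and 4, and negative control replicates 6 and 7, and in set A, SMAD3 deletion replicate 4 and HPRT-targeted replicate 3. Subunit genes took 1.79% to 2.15% of the counts of these libraries in set B and 1.99% to 2.19% in set A, against 1.24% to 1.47% and 1.54% to 1.89% in the other libraries. In set B, 40 of the 78 subunit genes at 10 CPM or more lay higher in all 5 of these libraries than in any of the other 10, against 9.21% of all 8465 genes at that level. In set A it was 34 of 78 in both libraries, against 15.7% of all genes. Complex V had the highest shares, 12 of 17 in set B and 10 of 17 in set A. For complex II they were 0 of 4 and 1 of 4. COX7A2L was at 156 to 199 CPM in the 5 libraries of set B against 28.6 to 91.4 CPM in the others, and NDUFB5, an accessory subunit of complex I, at 107 to 146 against 21.0 to 71.9 CPM. NDUFV3, a small accessory subunit beside the NADH site, was the 1 member to lie lower without overlap, at 50.8 to 82.4 against 91.9 to 135 CPM in set B. That is 1 of 78 members in set B, where 16.3% of all genes lay lower without overlap, and 0 of 78 in set A, where 19.3% did.

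Other measures moved with the same libraries. Cytosolic ribosomal protein genes took 14.9% to 17.3% of counts in set B and 15.3% to 16.4% in set A, against 9.35% to 11.3% and 11.7% to 14.5% elsewhere, and the endothelial markers 0.0926% to 0.109% and 0.108% to 0.116%, against 0.158% to 0.200% and 0.145% to 0.171%. Glycolysis genes were higher as well, at 0.958% to 1.14% against 0.821% to 0.946% in set B. In set A they were at 1.05% to 1.12% against 0.830% to 0.984%. Mitochondrial ribosomal proteins had 0.723% to 0.819% against 0.514% to 0.574% in set B and 0.678% to 0.709% against 0.537% to 0.621% in set A. Subunits encoded by mitochondrial DNA did not share this rise. They lay at 0.756% to 1.18% against 1.07% to 1.98% in set B, and at 1.53% to 2.42% against 1.77% to 3.11% in set A. Subunit genes have short coding sequences, with a median of 435 bases against 1407 for all 12073 genes that have one. Across 8322 genes within a library, the deviation from the mean of the set had a correlation with log2 coding length of -0.49 to -0.41 in the 5 libraries of set B and -0.48 to -0.47 in the 2 of set A. In the other libraries it was 0.32 to 0.47 in set B and -0.02 to 0.49 in set A. That mean takes in every library of the set, so a negative relation in some libraries entails a positive one in others. These correlations are across genes that share libraries and depth, and the part of transcript length in the subunit levels was not tested. Results are therefore given with all libraries and without the 7, the second being a choice made after the data were seen.

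**Figure D1:**
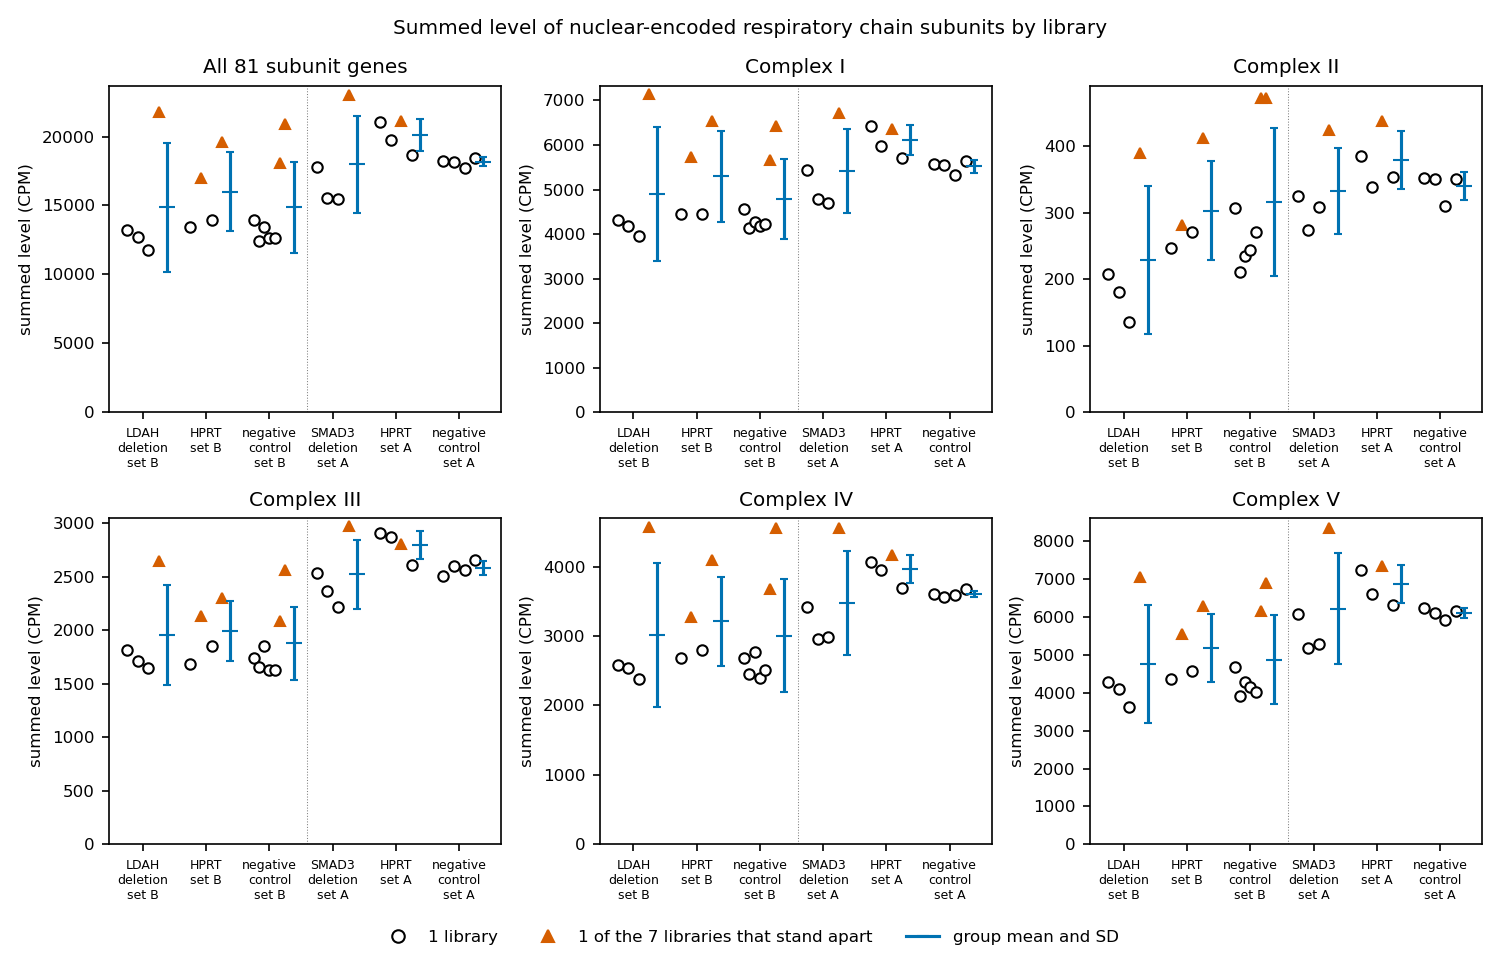
Summed level in CPM (vertical axes, from 0) of the 81 subunit genes and of each complex in every library, by group; circles are single libraries, triangles the 7 that stand apart, and the bars group mean and SD. The triangles lie between 16964 and 23024 CPM over all complexes, and the circles of set B, at 11743 to 13973 CPM, lie below those of set A, at 15499 to 21019 CPM.

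Summed over the 81 genes, LDAH deletion libraries held 14856.5 ± 4669 CPM (SD, n = 4), HPRT-targeted libraries of set B 15989.5 ± 2882 CPM (n = 4) and their negative controls 14856.5 ± 3313 CPM (n = 7). SMAD3 deletion libraries held 17972 ± 3534 CPM, HPRT-targeted libraries of set A 20135 ± 1153 CPM and their negative controls 18151 ± 326 CPM (n = 4 each). The highest library of each group except the negative control of set A was one that stands apart. The values in the 4 negative control libraries of set A, 17703 to 18476 CPM, were the closest together.

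Single members varied unequally about their group means. The median SD of log2 CPM was 0.330 over the 78 subunit genes at 10 CPM or more and 0.354 over all genes at that level. It was highest for the accessory complex I genes NDUFB3 (0.644), NDUFB5 (0.639) and NDUFB7 (0.613). It was lowest for NDUFS6 (0.146), which takes part in building the NADH-binding arm, for SDHA (0.167) and for ATP5F1E (0.168).

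Of the comparisons made with all libraries, the one between the sets was the one in which members passed the test. It was read in the negative control cells, which had received the same non-targeting guide, and everything else that differs between the sets cannot be told apart from it. COX6C, a small subunit at the surface of complex IV (ENSG00000164919), was at 256, 265, 295, 277, 268, 180 and 255 CPM in set B and 570, 551, 569 and 580 CPM in set A. The fold change was -1.14 ± 0.13 (log2, SE), with a 95% interval from -1.41 to -0.87 and, by the quasi-likelihood test of edgeR with Benjamini-Hochberg adjustment over every gene tested, an adjusted p of 0.000278. The difference ran through every group: the 15 libraries of set B, at 136 to 324 CPM, all lay below the 12 of set A, at 379 to 613 CPM. UQCRB (ENSG00000156467) had 601, 632, 694, 541, 519, 407 and 711 CPM in set B and 1084, 1105, 1099.6 and 1166 CPM in set A, a log2 fold change of -0.92 ± 0.14 (edgeR adjusted p = 0.00181). UQCRB, at 407 to 711 CPM in set B and 901 to 1293 CPM in set A, did not overlap over all 27 libraries either. Both are among the 3 of 78 members, 3.85%, whose libraries of set B all lay below those of set A, against 1.56% of all genes; 0 members had all libraries of set B above, against 0.969%.

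In all, 9 of the 81 members passed an adjusted p of 0.05 between the sets, 1 higher and 8 lower in set B, where 9.06% of all 11466 genes tested passed. The share of members is near that of all genes. Higher in set B was NDUFS7 (ENSG00000115286, chromosome 19, 1383527 to 1395589), the core subunit that carries the last iron-sulphur cluster before ubiquinone. It had 52.4, 33.5, 39.4, 34.1, 42.7, 39.3 and 49.6 CPM in set B and 19.8, 18, 23.9 and 22.6 CPM in set A, without overlap, a log2 fold change of 0.99 ± 0.17 (edgeR adjusted p = 0.00396). NDUFS7 was thus opposite in direction to the lower members. Of the remaining lower genes, NDUFA1 (accessory, membrane arm) had a log2 fold change of -1.001 ± 0.17, ATP5MG and ATP5ME (membrane part of the ATP synthase) -1.02 ± 0.22 and -0.64 ± 0.13, NDUFV3 -0.82 ± 0.18 and NDUFS6 -0.64 ± 0.11. Their edgeR adjusted p ran from 0.0028 for NDUFA1 to 0.0129 for NDUFV3. Over the 81 genes the median was -0.16, with 54 lower, against a median of 0.02 for all genes.

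With the 7 libraries left out, the set contrast had calls in all 5 complexes. The exclusion is one-sided here, dropping replicates 6 and 7 of the set B negative control and no set A negative control library. Subunit genes took 1.89% and 2.15% of their counts, against 1.28% to 1.46% in the rest of that group. Leaving them out therefore lowers the subunit level of set B. With 5 negative control libraries of set B and 4 of set A, 54 of 80 tested members passed, 49 lower and 5 higher, which is 67.5% against 31.2% of 11324 genes. The median was -0.41, against 0.02 for all genes. Of 18 complex V genes 14 were lower and 1, ATP5F1D, the delta subunit of the stalk, was higher, and complexes III and IV had 6 of 9 and 8 of 12 lower and 0 higher. Within complex I the accessory subunits had 17 of 30 lower and 2 higher with a median of -0.42, while the 7 core subunits had 2 lower and 2 higher, NDUFS7 and NDUFS1, with a median of 0.08. Complex II had SDHA and SDHC lower. ATP5MG, at -1.35 ± 0.09, and ATP5MC3, at -1.01 ± 0.08, were among the lowest, and NDUFA4 had -1.06 ± 0.09. The subunits encoded by mitochondrial DNA were lower as well, 7 of 13 with all libraries (median -0.78) and 9 of 13 without the 7 (median -1.23). So were cytosolic ribosomal proteins, 55 of 82 without the 7, with a median of -0.41.

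**Figure D2:**
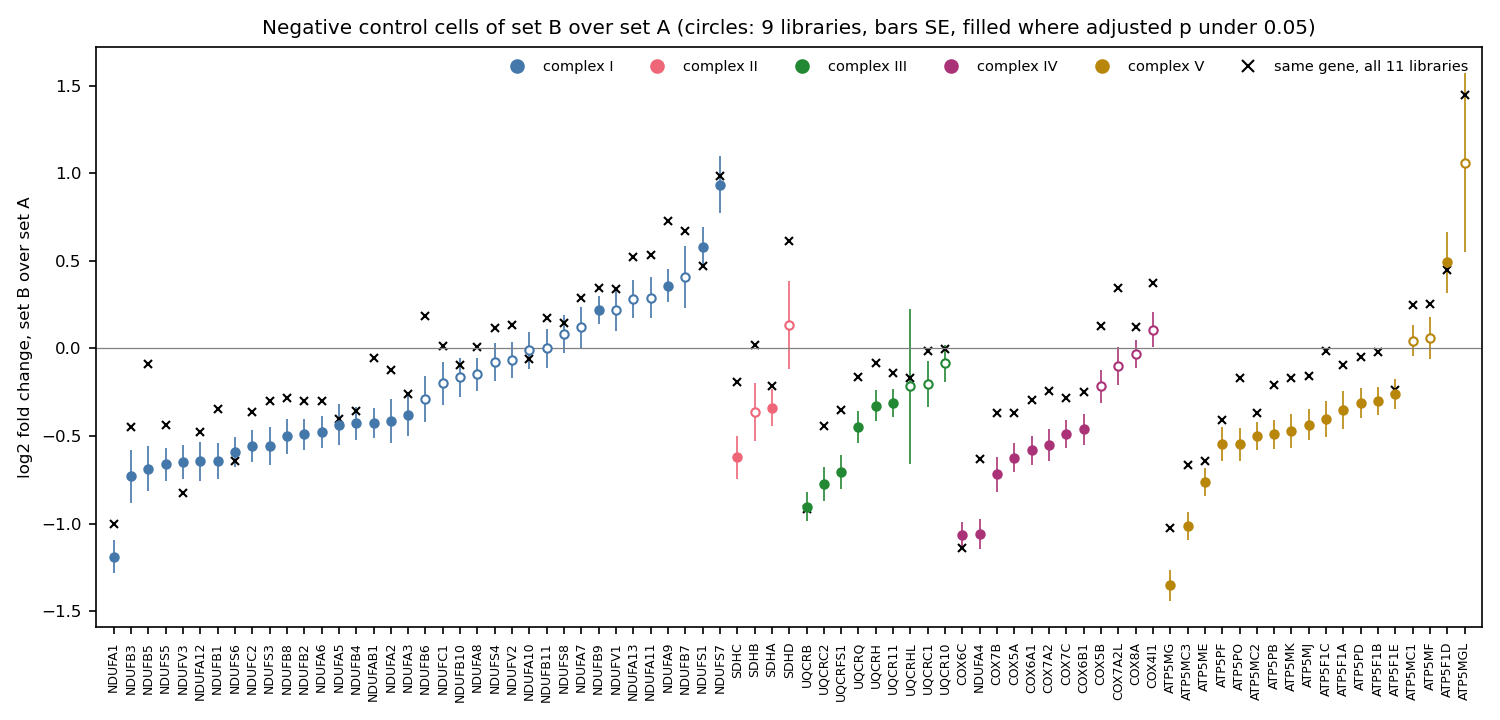
Log2 fold change of each of 79 subunit genes in negative control cells of set B over set A, by complex; circles with SE bars are from the 9 libraries that do not stand apart, filled where the adjusted p is under 0.05, and crosses are from all 11. Of the genes shown, ATP5MG lies lowest at -1.35, and NDUFS7 lies highest of those called at 0.93, and 72 of 79 crosses lie above their circles.

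The LDAH enhancer deletion was set against the negative control of set B to ask what follows loss of that enhancer. With all libraries, 0 of 81 members and 0% of 11769 genes passed in edgeR's quasi-likelihood test, 4 members reached an unadjusted p under 0.05, as did 4.61% of all genes, and DESeq2 called 0. The median was -0.01, with 39 higher and 42 lower; without LDAH deletion replicate 4 it was -0.24. In complex II all 4 genes were lower, with a median of -0.64 against 0.01 for all genes. SDHD (ENSG00000204370, chromosome 11, 112086773 to 112120013) had 11.1, 10.1, 10.9 and 16 CPM in LDAH deletion and 27.1, 14.5, 15.6, 21.7, 28.9, 43.1 and 57.7 CPM in negative control libraries. The groups overlapped in 1 deletion library, replicate 4. The log2 fold change was -1.32 ± 0.36, with an interval from -2.08 to -0.56 and an edgeR adjusted p of 0.693. In bulk RNA of an edited pool, fewer cells with a transcript and less of it per cell cannot be told apart. The highest 2 control values came from replicates 6 and 7, which stand apart.

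NDUFB3 (ENSG00000119013, chromosome 2, 201071433 to 201085750), an accessory subunit of the membrane arm, had 34.7, 23.8, 7.44 and 92.7 CPM in LDAH deletion and 77.6, 56.1, 63.8, 78.9, 83.1, 107 and 140.3 CPM in negative control libraries. The first 3 deletion libraries lay below every control, and replicate 4 lay among them. Its log2 fold change was -1.14 ± 0.46. NDUFC1 had 68.3, 81.6, 57.8 and 111 CPM against 120.1, 86.4, 109, 129, 104, 138 and 197 CPM, a log2 fold change of -0.67 ± 0.25. These genes overlap annotated genes on the other strand, SDHD with TIMM8B, NDUFB3 with FAM126B and NDUFC1 with NAA15, and the strand setting of the counting is not given in the sources used here. On their own strand, SDHD overlaps AP002884.3 and NDUFC1 overlaps MGARP. NDUFS6 (0.24 ± 0.13) and ATP5ME (0.26 ± 0.19) were among the members that led upward. All 13 mitochondrially encoded subunits were higher, by a median of 0.25, and 0 passed.

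Without the 7 libraries, leaving 3 LDAH deletion and 5 negative control libraries, 6 of 81 members passed, all lower, which is 7.41% against 1.74% of 12153 genes. Across all genes 191 of the 212 called were also lower. Cytosolic ribosomal protein genes had 7 of 82 lower past the test (8.54%) and mitochondrial ribosomal proteins 4 of 79 (5.06%), while 2 of the 13 mitochondrially encoded subunits were higher past it. NDUFB3 had a log2 fold change of -1.72 ± 0.29 (edgeR adjusted p = 0.00277), SDHB -0.91 ± 0.22 (0.0285), SDHC -0.84 ± 0.20 (0.0212), COX6C -0.65 ± 0.13 (0.00652), NDUFC1 -0.68 ± 0.16 (0.0227) and ATP5F1C, the gamma subunit that turns in the synthase, -0.69 ± 0.17 (0.0275). SDHC stood at 74.3, 57.5 and 35.2 CPM in these deletion libraries and 126, 75.3, 98.9, 105 and 90.2 CPM in the controls, and SDHB at 29.8, 30.9 and 19.2 against 68.5, 42.6, 40.1, 38.5 and 58.2 CPM. Neither overlapped. SDHD had -1.02 ± 0.27 (0.0546), while SDHA, the remaining gene of complex II, was at 92.7, 82.9 and 70.2 against 85, 78, 80.4, 78.9 and 94.1 CPM and overlapped. LDAH deletion replicate 4, the library left out, had 198 CPM of SDHC and 74.1 of SDHB, above the other 3. The median over all members was -0.07, and 52 of 81 were lower.

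Against the HPRT-targeted cells of set B, which were also cut, 0 of 81 members passed (0% of all genes, 0 members by DESeq2). An unadjusted p under 0.05 was reached by 1 member, against 4.22% of all genes. Of the 81 members 57 were lower, with a median of -0.11. Leaving out 1 library moved this median between -0.39 and 0.0023. The lowest was without LDAH deletion replicate 4, where 9 of 81 members were higher and 0 passed, and the highest was without HPRT-targeted replicate 4. NDUFC1 (-0.65 ± 0.28), SDHD (-0.78 ± 0.39) and SDHB (-0.88 ± 0.44) led downward, and SDHA (0.24 ± 0.18) led upward. Without the 7 libraries, which leaves 3 deletion and 2 HPRT-targeted libraries, 4 of 81 members passed, 4.94%, against 0.634% of all genes. The 4 were lower, as were 76 of all 77 genes called and 5 of 82 cytosolic ribosomal protein genes (6.1%). They were NDUFB3 (-1.74 ± 0.33, edgeR adjusted p = 0.0112), COX6C (-0.79 ± 0.15, 0.0115), SDHC (-1.14 ± 0.23, 0.0182) and ATP5F1C (-0.91 ± 0.20, 0.0314). Both comparisons use the same deletion libraries, so they do not stand for each other. The test of the difference between the SMAD3 and LDAH deletion effects passed 0 members with all 27 libraries. NDUFS6 (-0.49 ± 0.17), SDHD (1.41 ± 0.55) and NDUFC1 (0.65 ± 0.31) came nearest, each with an edgeR adjusted p of 1.00.

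**Figure D3:**
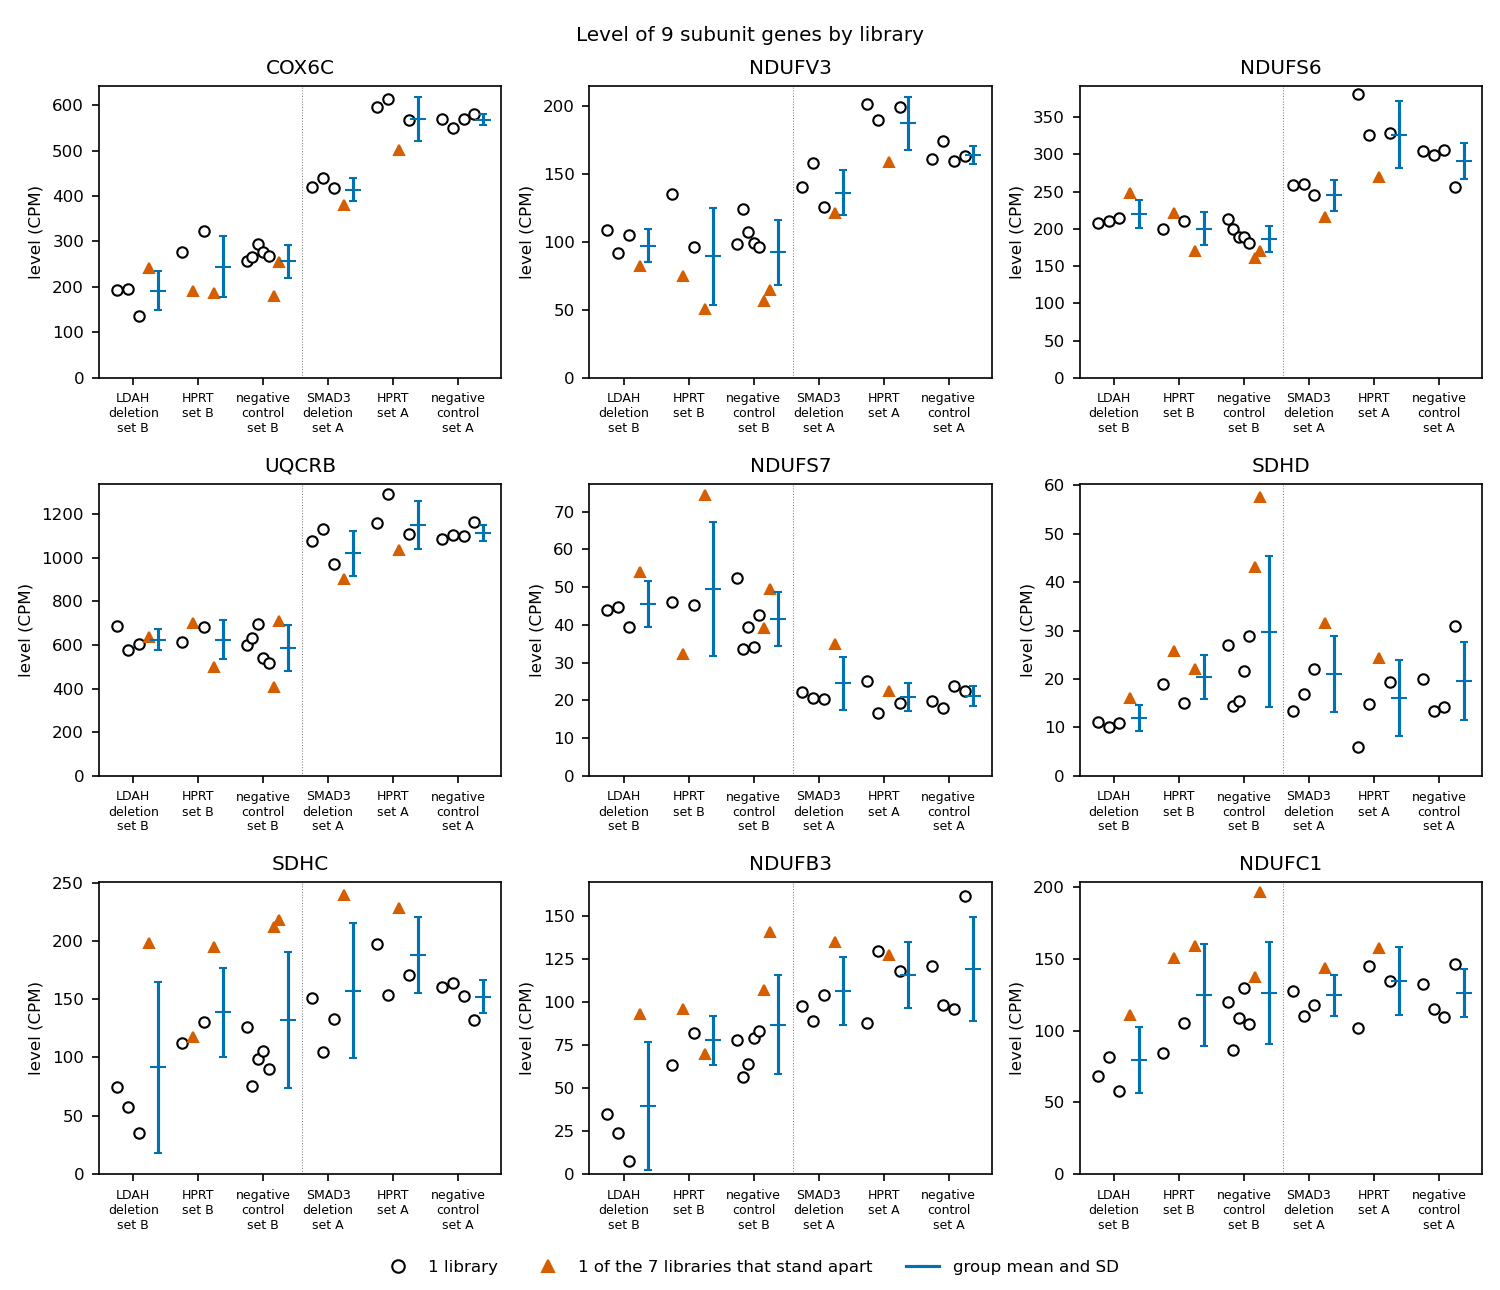
Level in CPM (vertical axes, from 0) of 9 subunit genes in each of the 27 libraries by group; circles are single libraries, triangles the 7 that stand apart, bars group mean and SD. COX6C and UQCRB separate the sets, COX6C is lower in all 4 SMAD3 deletion libraries (379 to 440 CPM) than in the other 8 of set A (502 to 613 CPM), and SDHC and NDUFB3 are lowest in 3 LDAH deletion libraries.

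In the SMAD3 enhancer deletion, COX6C was the member that led. It stood at 420, 440, 417 and 379 CPM in SMAD3 deletion, at 596, 613, 502 and 567 CPM in HPRT-targeted and at 570, 551, 569 and 580 CPM in negative control libraries of set A. Every deletion library lay below every other library of the set. COX6C overlaps the annotated gene VPS13B on the other strand, so the limit given for NDUFB3 holds for COX6C too. Against the negative control the log2 fold change was -0.44 ± 0.09, with an interval from -0.65 to -0.24. The adjusted p was 0.702 in edgeR's quasi-likelihood test, 0.0728 with limma voom and 0.00226 with DESeq2. Against the HPRT-targeted cells the log2 fold change was -0.44 ± 0.09 too, with adjusted p-values of 0.357 in edgeR, 0.0378 in limma voom and 0.00236 in DESeq2. The 2 comparisons share the deletion libraries. How many of all genes passed with limma voom and DESeq2 is not given here, so these calls do not set COX6C apart from genes at large.

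In that comparison with the negative control, 0 of 80 members passed in edgeR's test (0% of 11467 genes, of which 778 had an unadjusted p under 0.05), and 4 reached an unadjusted p under 0.05. COX6C, NDUFA1 (-0.25 ± 0.11) and NDUFV3 (-0.26 ± 0.11) were lower, and NDUFB7 (0.60 ± 0.27) was higher at 78, 49.7, 59.2 and 139.9 CPM against 46.4, 55.9, 64.5 and 49.5 CPM, its highest value being replicate 4. ATP5F1D (0.28 ± 0.13) and NDUFA11 (0.42 ± 0.21) followed upward. Of the 80, 45 were higher and 35 lower with a median of 0.01. Without SMAD3 deletion replicate 4 the median was -0.13. Without the 7 libraries 63 of 80 were lower with a median of -0.14 and 0 passed, against 0.00864% of all genes. That fit drops SMAD3 deletion replicate 4 and no library of the negative control.

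Against the HPRT-targeted cells of set A, 0 of 80 members passed (0% of all genes) and 8 reached an unadjusted p under 0.05, all lower, where 5.83% of all genes reached it. Besides COX6C, those with the smallest p were NDUFV3 (-0.44 ± 0.11), at 140, 158, 126 and 121 CPM in SMAD3 deletion against 201, 189.7, 159 and 199 CPM, and NDUFS6 (-0.40 ± 0.12), at 259, 259.6, 245 and 216 CPM against 381, 326, 270 and 328 CPM. Neither overlapped. ATP5F1D (0.25 ± 0.13), NDUFS1 (0.21 ± 0.12) and ATP5MF (0.24 ± 0.15) led upward. The median was -0.12 and 59 of 80 were lower. Leaving out 1 library moved the median between -0.27 and -0.05. The lowest was without SMAD3 deletion replicate 4, where 0 members passed.

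In the fit without the 7 libraries, 3 against 3, 5 of 80 members passed, all lower, against 0.475% of 11574 genes. They were COX6C (-0.47 ± 0.08, edgeR adjusted p = 0.0192), NDUFA1 (-0.45 ± 0.09, 0.0366), NDUFV3 (-0.47 ± 0.10, 0.0366), ATP5MC3 (-0.45 ± 0.10, 0.0469) and NDUFS6 (-0.43 ± 0.10, 0.0482). There 70 of 80 members were lower with a median of -0.24, complexes III and IV being lower in 9 of 9 and 12 of 12. Mitochondrially encoded subunits were lower in 12 of 13, 7 of them past the test, with a median of -0.59. Cytosolic ribosomal protein genes were lower in 77 of 82 with a median of -0.21, and 1 passed.

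COX6C, NDUFV3, NDUFS6 and NDUFA1 were thus low both in SMAD3 deletion against HPRT-targeted cells of set A and in set B against set A of the negative control. These contrasts have no library in common. Across the 80 members with values in both, the log2 fold changes had a Pearson correlation of 0.71, and 46 members were lower in both. Across 11305 genes the correlation was 0.44, so members and genes at large both show it. The sign was the same in both contrasts for 59 of 80 members and for 67.1% of those genes. The SMAD3 and LDAH deletions against their own negative controls had a correlation of 0.07 over the same members and 0.04 over all genes. Correlations across genes are descriptions, and the genes of a library share its depth and composition.

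**Figure D4:**
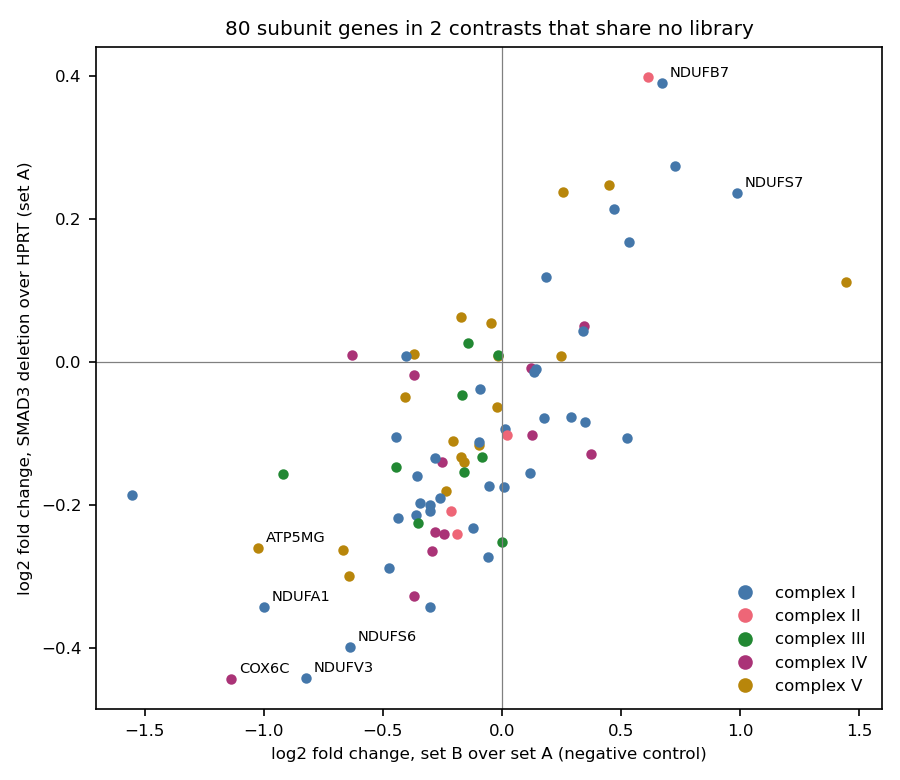
Log2 fold change of 80 subunit genes in SMAD3 deletion over HPRT-targeted cells of set A (vertical axis) and in set B over set A of the negative control (horizontal axis), coloured by complex, with 7 genes named. COX6C (-1.14 and -0.44) lies at the lower left and NDUFB7 (0.67 and 0.39) at the upper right, horizontal value first, with r = 0.71 across genes.

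HPRT targeting against the non-targeting guide asks what a cut at a gene outside this pathway goes with. In set A 72 of 80 members were higher in HPRT-targeted cells, with a median of 0.15, while 49% of all genes were higher with a median of -0.00. Complex III was higher in 9 of 9 and complex IV in 11 of 12. NDUFA10 (0.24 ± 0.11), NDUFA8 (0.26 ± 0.13) and ATP5MC3 (0.32 ± 0.19) led upward, and NDUFS1 (-0.21 ± 0.12), SDHD (-0.30 ± 0.39) and ATP5MF (-0.12 ± 0.15) downward. In edgeR's quasi-likelihood test 0 passed, against 0% of all genes, and DESeq2 called 0 members. An unadjusted p under 0.05 was reached by 1 member, against 2.24% of all genes. ATP5MC3 stood at 1123, 924, 1254 and 974 CPM in HPRT-targeted and 912, 849, 833 and 809 CPM in negative control libraries, without overlap, and its highest value was in replicate 3, which stands apart.

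In set B 61 of 81 members were higher in HPRT-targeted cells with a median of 0.10, where 46.85% of all genes were higher. There 0 passed (0% of all genes, 0 members by DESeq2), and 0 members reached an unadjusted p under 0.05, against 1.75% of all genes. NDUFB9 (0.27 ± 0.18), NDUFV2 (0.33 ± 0.24) and NDUFA13 (0.43 ± 0.31) led upward, and SDHA (-0.29 ± 0.16), SDHD (-0.54 ± 0.35) and COX7A1 (-1.18 ± 1.08), the last from very few reads, downward. Without HPRT-targeted replicate 4 the median was -0.03. With both sets in 1 fit and the set as a covariate, 68 of 81 members were higher with a median of 0.12, against 46.8% of all genes. In that fit 0 passed (0% of all genes), and 2 members reached an unadjusted p under 0.05, against 3.19% of all genes. NDUFB9 (0.24 ± 0.11), NDUFA13 (0.36 ± 0.17) and NDUFA3 (0.21 ± 0.11) led. Complex II was divided, with SDHA at -0.16 ± 0.10 and SDHD at -0.43 ± 0.28. Cytosolic ribosomal protein genes moved with the members, higher in 78 of 82 with a median of 0.14. Mitochondrially encoded subunits had a median of -0.02.

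Without the 7 libraries, HPRT targeting in both sets left 67 of 81 members higher with a median of 0.09, 13 of 13 in complex IV and 16 of 18 in complex V, and 0 passed, against 0.00825% of all genes; 13 of 13 mitochondrially encoded subunits were then higher, with a median of 0.16. COX6A1 (0.22 ± 0.07) and ATP5MC3 (0.20 ± 0.06) came nearest. The HPRT effects of the 2 sets did not differ past the threshold for any member with all 27 libraries; SDHA (0.31 ± 0.19) came nearest, with an edgeR adjusted p of 1.00.

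**Figure D5:**
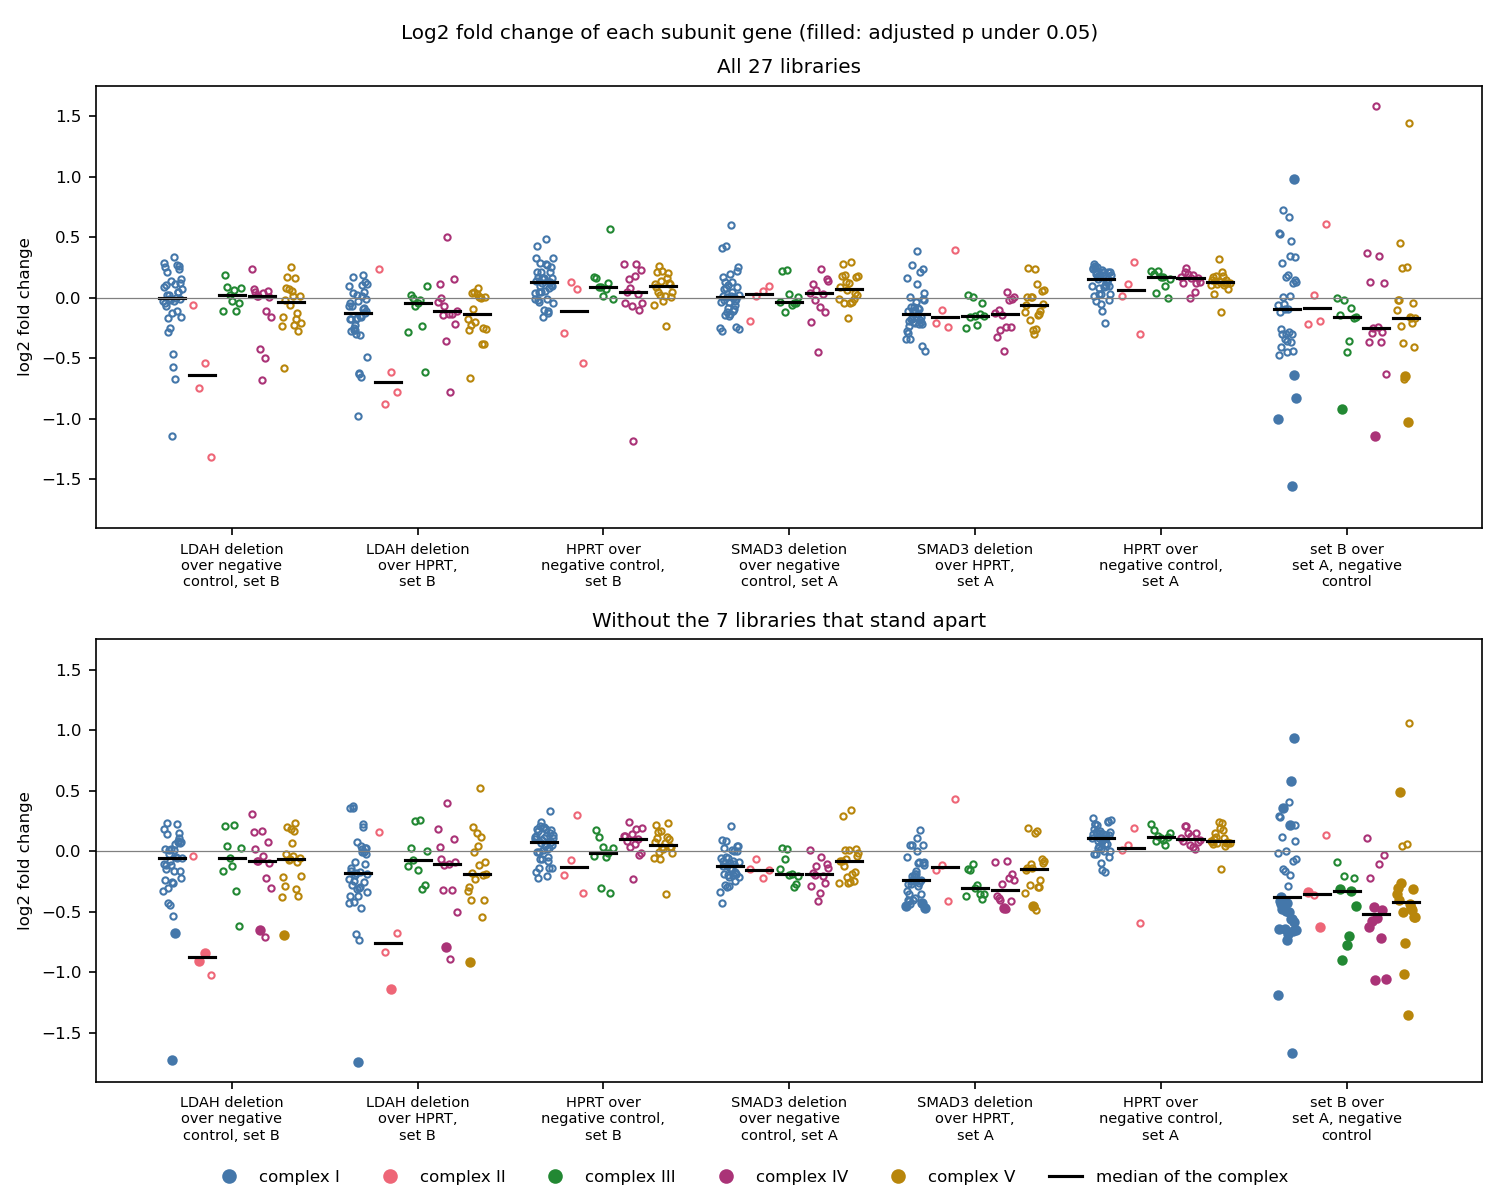
Log2 fold change of every tested subunit gene (points, coloured by complex, filled where the adjusted p is under 0.05) in 7 comparisons, with all 27 libraries above and without the 7 that stand apart below; black bars are medians of a complex. Calls with all libraries lie in the contrast of the sets alone (9 genes), and without the 7 they lie also in the SMAD3 contrast with HPRT-targeted cells (5) and in both LDAH contrasts (6 and 4).

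Other genes of the pathway gave no calls in the treatment comparisons with all libraries. The 17 complex I assembly factors had medians of -0.02 in LDAH deletion and -0.06 in SMAD3 deletion against the negative controls, and the 79 tested mitochondrial ribosomal proteins -0.04 and 0.01. Regulators of mitochondrial biogenesis had medians of -0.23 and -0.14, with 11 of 15 and 9 of 15 lower. Glycolysis genes had 0.15 and 0.02, with 15 of 19 and 10 of 19 higher. Assembly factors of complexes III to V had -0.05 and -0.06, electron carriers -0.24 and 0.07, and citric acid cycle genes -0.04 and -0.08. None of these lists had a member past the adjusted threshold there, where 0% of all genes passed. Between the sets 9.06% of all genes passed with all libraries. In that contrast 1 of 17 complex I assembly factors, 2 of 13 citric acid cycle genes and 7 of 79 mitochondrial ribosomal proteins passed. Without the 7 libraries, LDAH deletion against the negative control had 1 of 17 complex I assembly factors, 1 of 15 biogenesis regulators, 1 of 19 glycolysis genes and 4 of 79 mitochondrial ribosomal proteins past the threshold, all lower, beside 1.74% of all genes. SMAD3 deletion against HPRT-targeted cells then had 1 of 38 assembly factors of complexes III to V, also lower, beside 0.475%.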

How the data were processed

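RNA of 27 libraries was made into QuantSeq 3′ FWD libraries and read for 86 cycles, per the labels' protocols. The authors deposited raw counts per gene; per the submitters' processing notes, edgeR 3.24.3 was used and the build was hg38. Not given in the sources used here are the aligner, the counting program and its strand setting. Symbols came from a current table for 13949 of 14008 genes and from GENCODE 29 for 57. Counts were scaled by TMM, low genes were removed by edgeR's expression filter, and quasi-likelihood tests (edgeR 4.0.16, R 4.3.3) were fitted over all genes of each set, or of both sets, with Benjamini-Hochberg adjustment over every gene tested. A fold change is log2, the group named first over the second, with its SE and, where given, a 95% interval.

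Alternatives were DESeq2 1.42.0, limma 3.58.1 voom, other size factors and filters, the 2 compared groups alone, and each library left out. A library stood apart when its median correlation with the rest of its set lay over 3 scaled median absolute deviations below the median of the set. The test was tried on simulated data with 200 changed genes, a fixed spread between libraries and no libraries that stand apart. That spread was near edgeR's common dispersion in the set A fit (0.0434). It was below those of the set B fit (0.195) and the negative control fit (0.106). The trial therefore does not measure how the test does at the spread of those fits. Members and gene lists were chosen with earlier results of these data known. Named genes were a list of core and paralogous subunits, the members past the threshold (up to 10 in each direction, otherwise the 3 with the smallest p) and the 3 with the highest and lowest SD; ATP5F1C, COX7A2L in the libraries that stand apart, and genes called without those libraries were named after their values were seen. The values of 1 member are not reported here by name; it is counted in the totals and medians.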

Additional observations from a re-analysis of the deposited data

Results flagged for a closer look

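In 33 of 330 groups of values, 1 library lay further from the others than Dixon's critical value at 95% allows, where chance gives about 1 in 20. LDAH deletion replicate 4 had 16 of these values, all high. Its summed level was 21802.5 CPM over all subunit genes, 7138 CPM in complex I, 2643 CPM in complex III and 4567 CPM in complex IV. In complex I it had 362 CPM of NDUFA11, 219.5 CPM of NDUFA13, 683 CPM of NDUFB9 and 248 CPM of NDUFS6. SDHD stood at 16 CPM in it, UQCRC1 at 110.5 CPM and UQCRQ at 602 CPM. COX5B stood at 374 CPM, COX6A1 at 326 CPM, COX7A2 at 377 CPM, ATP5F1A at 423 CPM and ATP5MC2 at 594 CPM.

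SMAD3 deletion replicate 4 was high in ATP5F1A (459.9 CPM), ATP5MC2 (740.3 CPM), COX8A (477 CPM), NDUFB5 (138 CPM), NDUFS7 (34.9 CPM) and UQCRHL (4.48 CPM). HPRT-targeted replicate 3 of set A was high in COX7A2L (128 CPM) and NDUFAB1 (288 CPM). HPRT-targeted replicate 2 of set B was low in ATP5F1E (578 CPM), and replicate 4 was high in NDUFA3 (67.9 CPM) and UQCRHL (10.9 CPM). Negative control replicate 6 of set B was low in COX6C (179.9 CPM), and replicate 7 was high in NDUFA13 (169 CPM) and NDUFA3 (68.9 CPM). These are all libraries that stand apart. In the negative control of set A, which holds no library that stands apart, replicate 3 was low in the sum of complex II (309 CPM) and replicate 4 in ATP5F1E (836 CPM) and NDUFS6 (256 CPM).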

How the results depend on the processing

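Counts of subunit genes past an adjusted p of 0.05 changed under few alternatives. DESeq2 called 1 gene, COX6C, for SMAD3 deletion against the negative control and 1 against HPRT-targeted cells, and limma voom with sample quality weights also called 1 against HPRT-targeted cells. Without the 7 libraries that stand apart, chosen after the data were seen, the counts were 5 for SMAD3 deletion against HPRT-targeted cells, 6 for LDAH deletion against the negative control, 4 against HPRT-targeted cells and 54 between the sets. Between the sets, limma voom called 56, and leaving out 1 library at a time gave 8 to 24, the highest without negative control replicate 7 of set B. In all other comparisons, leaving out 1 library gave 0. The counts from DESeq2, from limma voom and with 1 library left out are of members alone. The share of all genes in each of these fits is not given here, so the counts do not set members apart from genes at large. The median over members ran from -0.24 to 0.09 for LDAH deletion against the negative control, from -0.13 to 0.09 for SMAD3 deletion against its own, from -0.39 to 0.0023 and from -0.27 to -0.05 for the LDAH and SMAD3 deletions against HPRT-targeted cells, from -0.13 to 0.29 for the difference of the deletion effects, and from -0.03 to 0.20 for HPRT targeting in set B. As a percent of the library total without TMM, the summed level was 1.87% in HPRT-targeted and 1.74% in negative control libraries of set A.

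Of the fold changes of named genes, 1125 kept direction and call under an alternative, 8 gained a call, 1 lost it and 6 changed sign; the cause was not tested. In HPRT-targeted cells of set A, SDHD ran from -0.58 to 0.0068 and ATP5MF from -0.18 to 0.030 over the libraries left out. COX7A1 in set B was 0.022 with limma voom. For the difference of HPRT effects, NDUFS7 ran from -0.42 to 0.0038 and UQCRHL from -0.85 to 0.59 over the libraries left out, and UQCRHL was 0.47 without the 7. No paired analysis was possible because the labels give the groups no shared replicate numbers and do not say that neighbouring library numbers mark pairs.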
